A study of Solanum lycopersicum with 6 samples.

Results

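Tomato fruit becomes ripe under the control of a small set of transcription factors and 1 enzyme that removes DNA methylation. Transcripts of 10 such regulators, RIN, NOR, CNR, TAGL1, FUL1, FUL2, AP2a, NOR-like1, MADS1 and DML2, were followed through 6 fruit libraries. They were chosen by their gene identifiers, and all 10 were found among the 40229 gene models of the deposited table. The libraries came from Solanum lycopersicum fruit at 25 days after anthesis, that is, after flower opening. The series describes the wild type as the dwarf cultivar Micro-Tom and gives it 3 libraries (genotype WT). The other 3 carry the genotype SlLBD40-KO, a knockout of SlLBD40, which encodes a LATERAL ORGAN BOUNDARIES domain (LBD) transcription factor. The labels do not name the editing method, the number of lines, or whether fruits were pooled, so p-values measure only the spread between these libraries. No treatment is given for either genotype.

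As background, ripening of this fruit starts with a burst of ethylene, the gaseous hormone that drives colour change, softening and aroma. RIN, a MADS-box protein of the SEPALLATA type, binds the promoters of many ripening genes in complexes with other MADS-box proteins, among them FUL1, FUL2 and TAGL1. NOR, a NAC-domain factor, and CNR, an SBP-box factor, were found through mutant fruits that fail to ripen. DML2 is a DNA demethylase whose activity strips methyl groups from promoters of ripening genes. AP2a and MADS1 are known as restraints on ethylene production or ripening.

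Levels are given in TPM, transcript abundances scaled to a fixed total per library, which are scaled to transcript length and so allow genes to be compared. Differences are knockout minus wild type of log2(TPM + 1), where the added 1 shrinks the change of weakly expressed genes. They were tested with limma over 18368 genes, and a gene was called at a Benjamini-Hochberg adjusted p under 0.05. Libraries are named by the numbers of the table's columns, which do not follow the sample titles and pair nothing across genotypes. Where the labels give a sequencing lane it differs between the genotypes, and the sample titles begin with PB in wild type and Br in the knockout, prefixes whose meaning is not given. The series title speaks of different fruit stages. Genotype cannot be told apart from lane, or from whatever the prefixes mark, in any value that follows.

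The libraries differed in seed storage, green tissue and ripening transcripts. Among genes described as seed storage or oil body proteins, 42 remained once lipid-transfer relatives were set aside, a step chosen after seeing the values. Their summed level was 4657 TPM in wild type 1 and 4699 TPM in knockout 1, against 62.6 to 431 TPM in the other 4 libraries, and 17 to 24 of the 42 were listed at 0 in each library. The full pattern of 106 genes, which includes those relatives, summed to between 604 and 14255 TPM. Transcripts of 35 chlorophyll-binding proteins, markers of green tissue, summed to 2891, 567 and 749 TPM in wild type 1, 2 and 3, against 1133, 1166 and 2190 TPM in knockout 1, 2 and 3. The 5 markers of ripening fruit (PG2a, E8, E4, ACS2 and PSY1) were above 0 in all 6 libraries and summed to 901, 2071 and 1495 TPM in the wild-type libraries, against 2097, 630 and 8040 TPM in those of the knockout. E8 made up most of each sum, with 512, 1390 and 904 TPM in the wild-type libraries, against 1822, 449 and 6454 TPM in those of the knockout. Some other values were close to 0, such as PG2a in wild type 1 (0.04 TPM) and ACS2 in knockout 2 (0.24 TPM). Knockout 3 thus held the highest ripening sum, the highest green sum of its genotype and, with 17352 genes at 1 TPM or more, the fewest detected genes. In bulk tissue, fewer cells of a type and less RNA per cell cannot be told apart. The labels give no identifier for SlLBD40. Solyc02g085910, taken for it from memory, had 1.57, 5.35 and 1.90 TPM in the wild-type libraries, against 0.77, 2.51 and 3.85 TPM in those of the knockout, so its level does not check the genotype. Another gene, Solyc05g009320, is described in the deposited data as LOB domain-containing protein 40. It had 3.41, 0.79 and 1.53 TPM, against 1.23, 1.51 and 0.61 TPM (limma adjusted p = 0.692), and does not check the genotype either.

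RIN and NOR were the most different regulators between the genotypes, and neither passed the test. RIN (Solyc05g012020) had 1.53, 19.71 and 8.14 TPM in wild type 1, 2 and 3 and reached 27.3, 20.85 and 113 TPM in knockout 1, 2 and 3. Every knockout library lay above every wild-type library, but knockout 2 exceeded wild type 2 by little, and knockout 3 stood far above the rest. The log2 fold change was 2.40 (SE 0.89, 95% interval 0.31 to 4.49), with an unadjusted limma p of 0.0298 and an adjusted p of 0.228 (n = 3 per genotype). It was 1.58 without wild type 1 (limma unadjusted p = 0.0794, adjusted p = 0.426) and 1.67 without knockout 3 (limma unadjusted p = 0.0898, adjusted p = 0.33).

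NOR (Solyc10g006880) had 3.29, 28.9 and 28.95 TPM in the wild-type libraries, against 80.4, 54.0 and 402 TPM in those of the knockout. The groups again did not overlap, wild type 1 was the lowest library and knockout 3 the highest. Its log2 fold change was 2.96 (SE 0.98, 95% interval 0.66 to 5.26), with an unadjusted limma p of 0.0186 and an adjusted p of 0.19. Without wild type 1 it was 2.03 (limma adjusted p = 0.344) and without knockout 3 it was 2.10 (limma adjusted p = 0.261). Without both libraries rich in seed storage transcripts, called seed-rich here (wild type 1 and knockout 1), it was 2.32 for NOR (limma adjusted p = 0.548) and 1.86 for RIN (limma adjusted p = 0.611). The part of seed content or of fruit stage in these differences was not tested.

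**Figure D1:**
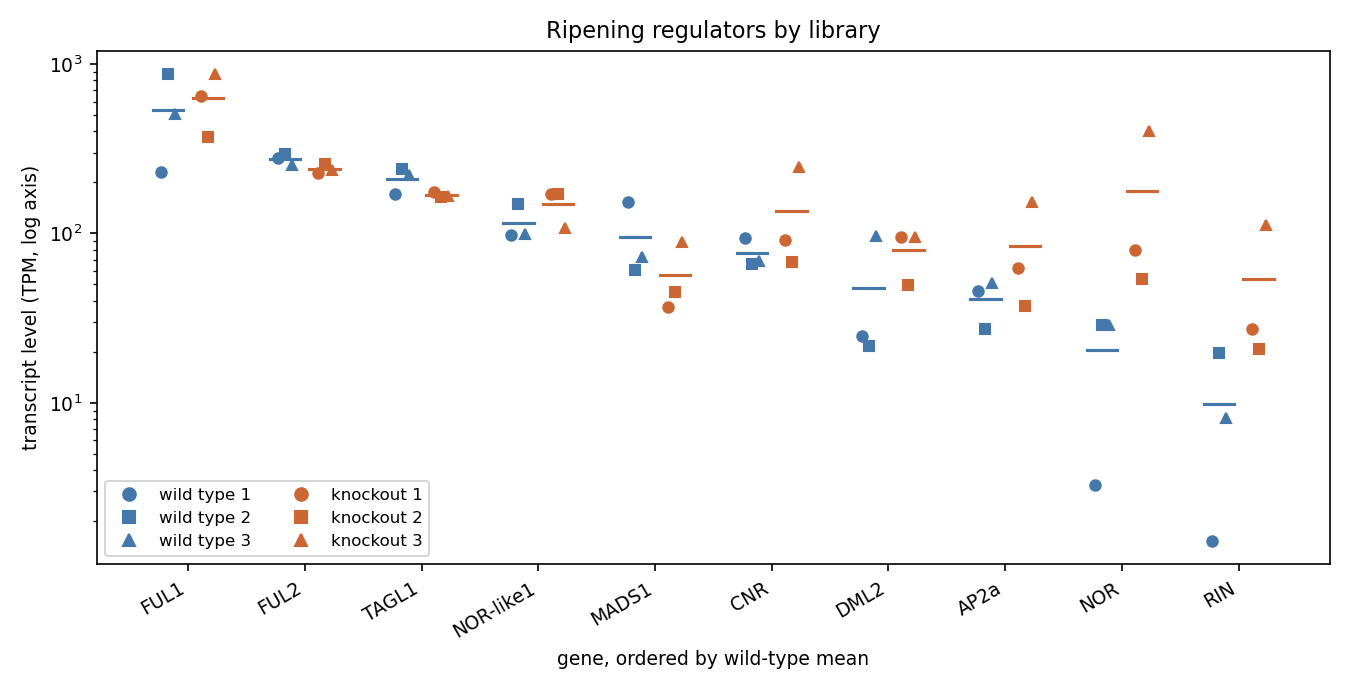
Transcript level of each regulator in TPM on a log axis, by library, with genes ordered by their wild-type mean; bars are the means of 3 libraries. RIN runs between 1.53 TPM (wild type 1) and 113 TPM (knockout 3) and NOR from 3.29 to 402 TPM in the same libraries, while the points of FUL2 lie between 229 and 296 TPM.

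The NAC relative NOR-like1 (Solyc07g063420), which also promotes ripening, had 97.7, 150 and 98.8 TPM in the wild-type libraries, against 172, 170.4 and 108 TPM in those of the knockout. Knockout 3, the library richest in NOR, was the lowest of its genotype in NOR-like1, and the groups overlapped. This gave a log2 fold change of 0.37 (SE 0.29; limma adjusted p = 0.559).

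Among the MADS-box partners of RIN, FUL1 was the most abundant and the most variable. FUL1 (Solyc06g069430), also known as TDR4, had 230.5, 872 and 505 TPM in the wild-type libraries, against 651, 371 and 872 TPM in those of the knockout. The 2 genotypes reached the same maximum, and wild type 1 was the lowest library. Its log2 fold change of 0.35 (SE 0.53; limma adjusted p = 0.794) became −0.16 without wild type 1 and −0.22 when both seed-rich libraries were removed. FUL2 (Solyc03g114830), its close relative with an overlapping function, had 278, 296 and 255 TPM in the wild-type libraries, against 229, 257 and 235 TPM in those of the knockout. All 6 values lay near each other, and the log2 fold change was −0.20 (SE 0.20, 95% interval −0.66 to 0.26; limma adjusted p = 0.66). TAGL1 (Solyc07g055920), a relative of AGAMOUS that acts in fruit expansion and ripening, had 172, 241 and 220.1 TPM in the wild-type libraries. Its knockout values of 175, 164 and 166 TPM lay below wild type 2 and 3 and beside wild type 1. The corresponding log2 fold change was −0.31 (SE 0.22, 95% interval −0.82 to 0.20; limma adjusted p = 0.511). The intervals of FUL2 and TAGL1 exclude a 2-fold change in either direction, while that of FUL1, from −0.90 to 1.60, does not exclude a 2-fold higher level.

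The 2 regulators known as restraints had mean differences of opposite sign, and neither passed the test. MADS1 (Solyc03g114840), whose gene lies next to that of FUL2 on chromosome 3 with 0 genes annotated between them in the RefSeq assembly SLM_r2.1, had 154, 61.0 and 72.6 TPM in the wild-type libraries, against 36.8, 45.3 and 88.7 TPM in those of the knockout. Wild type 1, the library lowest in RIN and NOR, was the highest in MADS1. The groups overlapped through knockout 3, and the log2 fold change was −0.72 (SE 0.45; limma adjusted p = 0.462). It was −1.09 without knockout 3, −0.32 without wild type 1 and −0.068 when both seed-rich libraries were removed. AP2a (Solyc03g044300), which limits ethylene production, had 45.7, 27.3 and 50.7 TPM in the wild-type libraries, against 62.3, 37.4 and 153 TPM in those of the knockout. Knockout 3 was again the highest, and the groups overlapped through knockout 2. Its log2 fold change of 0.82 (SE 0.52; limma adjusted p = 0.469) was 0.27 without knockout 3.

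CNR and DML2 complete the set. CNR (Solyc02g077920) had 93.7, 65.8 and 69.0 TPM in the wild-type libraries, against 91.6, 68.2 and 248 TPM in those of the knockout. Knockout 1 and 2 lay within the wild-type range and knockout 3 stood apart. For CNR the log2 fold change was 0.62 (SE 0.47; limma adjusted p = 0.556), and 0.07 without knockout 3. DML2 (Solyc10g083630) had 24.8, 21.7 and 96.1 TPM in the wild-type libraries, against 95.2, 49.4 and 95.6 TPM in those of the knockout. Wild type 3 stood with the knockout libraries, so the groups overlapped. For DML2 the log2 fold change was 1.01 (SE 0.58; limma adjusted p = 0.424). It was 1.68 without wild type 3 (limma adjusted p = 0.243), 0.63 without wild type 2 (limma adjusted p = 0.653) and 0.57 when both seed-rich libraries were removed (limma adjusted p = 0.843).

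**Figure D2:**
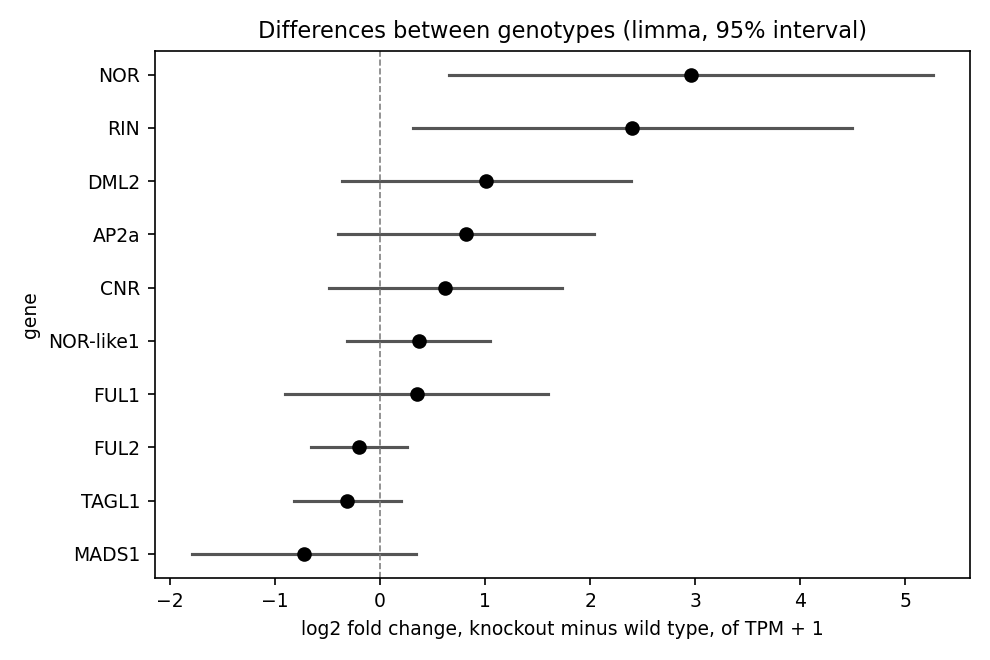
Log2 fold change of each regulator, knockout minus wild type on the log2(TPM + 1) scale, with its 95% interval from limma (n = 3 per genotype). The intervals of RIN (0.31 to 4.49) and NOR (0.66 to 5.26) lie above 0 before adjustment for the number of genes tested, and those of the other 8 include 0.

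In all, 0 of the 10 regulators passed limma's adjusted threshold, where 0.0926% of the 18368 genes did. At an unadjusted p under 0.05, 2 regulators were higher in the knockout and 0 lower, against 6.24% of all genes higher and 11.3% lower. Under median-ratio scaling the shares of all genes were 9.29% and 9.50%, and RIN and NOR remained the 2 regulators concerned. The genotypes did not overlap for these 2 of 10 (higher) and for 0 of 10 (lower), against 8.26% and 16.1% of all genes. The median log2 fold change of the 10 was 0.50, with 7 above 0 and 3 below, beside a median of −0.087 over all genes, of which 43.5% were above 0. It ranged from 0.17 without knockout 3 to 0.84 without knockout 2. Median-ratio scaling moved the median of all genes by 0.10, and the 3 regulators below 0 (TAGL1, FUL2 and MADS1) kept their sign under it. With 3 libraries per genotype the test found 1.49% of simulated 2-fold changes, 55.2% of 4-fold changes and 72.7% of 8-fold changes. The changed genes were drawn only from those with a mean level above about 10 TPM, and a gene had the same spread in both genotypes. These rates are averages over genes of unlike spread in a simulation that changed few genes. They do not tell how often a change in any 1 of these regulators would be called.

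The regulators spanned a wide range of levels. In wild type FUL1 led with 536 ± 322 TPM, followed by FUL2 (276 ± 20.5), TAGL1 (211 ± 35.4), NOR-like1 (115 ± 29.8), MADS1 (95.8 ± 50.5), CNR (76.2 ± 15.2), DML2 (47.5 ± 42.1), AP2a (41.3 ± 12.3), NOR (20.4 ± 14.8) and RIN (9.79 ± 9.20), all mean TPM ± SD with n = 3. The ranges of neighbours in that order did not overlap between FUL2 and TAGL1 or between TAGL1 and NOR-like1, and overlapped for the other neighbours. In the knockout FUL1 (631 ± 251 TPM) lay clear of FUL2 (240 ± 14.7 TPM), and the ranges of all other neighbours overlapped. There NOR, at 179 ± 194 TPM, ranked below FUL1 and FUL2 by its mean through knockout 3 alone, and RIN was still the lowest at 53.6 ± 51.3 TPM.

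The regulators differed in how steady they were between libraries of 1 genotype. On the log2(TPM + 1) scale the SD between libraries within a genotype was 1.57 for NOR and 1.41 for RIN, beside a median of 0.42 over all genes tested. Set against the 500 genes nearest in mean level, the SD of NOR was at percentile 99.0 and that of RIN at 95.6. DML2 (SD 0.91), FUL1 (0.81), AP2a (0.79), CNR (0.71) and MADS1 (0.68) followed, at percentiles 83.6 to 94.0 of their own level. At the other end stood FUL2, with an SD of 0.10 at percentile 2.20, and TAGL1, with 0.18 at percentile 11.8, while NOR-like1, with 0.36, was near the middle at percentile 49. Over the 6 libraries FUL2 thus stayed within 229 to 296 TPM while its partner RIN spanned 1.53 to 113 TPM.

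**Figure D3:**
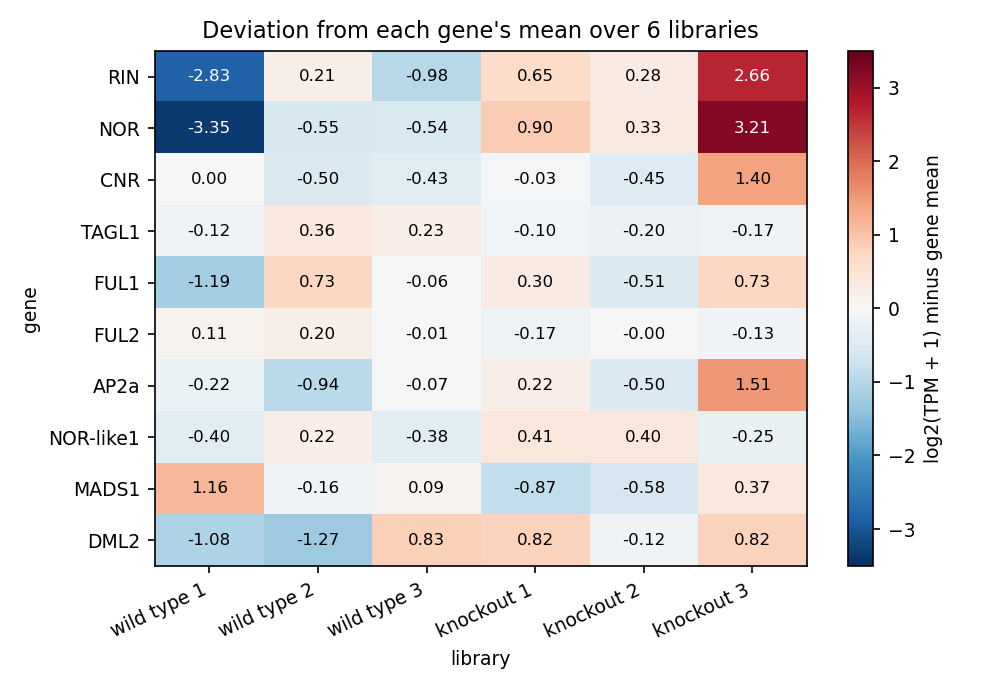
Deviation of each regulator from its own mean over 6 libraries, in log2(TPM + 1), by library. Wild type 1 is low for RIN (−2.83), NOR (−3.35), FUL1 (−1.19) and DML2 (−1.08) and high for MADS1 (1.16), and knockout 3 is high for RIN (2.66), NOR (3.21), AP2a (1.51) and CNR (1.40).

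Extremes were spread over several libraries. Knockout 3 held the highest level of 4 of the 10 regulators (RIN, NOR, CNR and AP2a), where it held the highest level of 11.1% of all genes tested and the lowest of 39.9%. Wild type 1 held the lowest level of 4 (RIN, NOR, FUL1 and NOR-like1), where it held the lowest of 20.3% of all genes. Wild type 2 held the highest level of 3 (TAGL1, FUL1 and FUL2) and the lowest of 3 (CNR, AP2a and DML2), where it held the highest of 12.1% of all genes and the lowest of 12.1%. Wild type 3 held the highest level of 1 (DML2) and knockout 1 of 1 (NOR-like1), beside 29% and 24.3% of all genes. Some of these places were near ties. DML2 had 96.1 TPM in wild type 3 and 95.56 TPM in knockout 3, and FUL1 had 872.36 TPM in wild type 2 and 872.27 TPM in knockout 3. The lowest levels of NOR-like1 were 97.71 TPM in wild type 1 and 98.81 TPM in wild type 3. The regulators together took 1101, 1784 and 1405 TPM in the wild-type libraries, against 1621, 1237 and 2483 TPM in those of the knockout, so the sums overlapped between genotypes.

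Pairs of regulators were compared over the 6 libraries by Pearson's r and Spearman's rho of log2(TPM + 1), with exact permutation of the pairings and adjustment over all 45 pairs. Of these, 4 had an unadjusted exact p under 0.05 for r and 0 an adjusted one. By rho the numbers were 3 and 0. Under median-ratio scaling they were 3 and 0 for r and 1 and 0 for rho. RIN and NOR had r = 0.98 (exact p = 0.00833, adjusted p = 0.188) and rho = 0.94 (exact p = 0.0167, adjusted p = 0.375). Without wild type 1 and knockout 3, the libraries farthest from the median of RIN, r was 0.73 over 4 libraries, so much of the relation rests on those libraries. RIN and FUL1, 1 of the 3 pairs under median-ratio scaling (r = 0.86, exact p = 0.0306, adjusted p = 0.458), had r = 0.81 before it (exact p = 0.05, adjusted p = 0.45). There rho was 0.54 (exact p = 0.297, adjusted p = 0.799), and r was 0.22 without wild type 1 and knockout 3. CNR and AP2a had r = 0.94 (exact p = 0.0208, adjusted p = 0.234) and rho = 0.83 (exact p = 0.0583, adjusted p = 0.525), and r = 0.54 without wild type 2 and knockout 3.

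Other pairs had a negative r. NOR-like1 and MADS1 had r = −0.87 (exact p = 0.0125, adjusted p = 0.188) and rho = −0.94 (exact p = 0.0167, adjusted p = 0.375), and r = −0.66 without knockout 1 and 2. Under median-ratio scaling r was −0.49 (exact p = 0.314, adjusted p = 0.701). FUL2 and DML2 had r = −0.92 (exact p = 0.00833, adjusted p = 0.188) and rho = −0.77 (exact p = 0.103, adjusted p = 0.661), and r = −0.87 without wild type 2 and knockout 1, although FUL2 itself varied little. Under median-ratio scaling r was −0.46 (exact p = 0.324, adjusted p = 0.701), so both negative relations depend on the scaling, while RIN and NOR had r = 0.98 and CNR and AP2a r = 0.95 under it. Taken as deviations from the genotype means, r was 0.95 for RIN and NOR, 0.92 for CNR and AP2a, −0.82 for NOR-like1 and MADS1 and −0.92 for FUL2 and DML2 (0.96, 0.94, −0.32 and −0.46 under median-ratio scaling), a description over 6 libraries in which each genotype holds 3. By the same measure r was 0.94 for RIN and FUL1 (0.96 under median-ratio scaling). NOR and NOR-like1, the 2 NAC factors, had r = 0.27 (exact p = 0.619, adjusted p = 0.734) and rho = 0.54 (exact p = 0.297, adjusted p = 0.799). FUL1 and FUL2 had r = −0.24 (exact p = 0.644, adjusted p = 0.744) and rho = −0.09 (exact p = 0.919, adjusted p = 0.985), with r = 0.30 under median-ratio scaling. In all, r was above 0 for 23 of the 45 pairs and for 37 under median-ratio scaling. The same share was not counted for pairs of other genes. These counts therefore do not tell whether the regulators moved together more than other genes did.

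**Figure D4:**
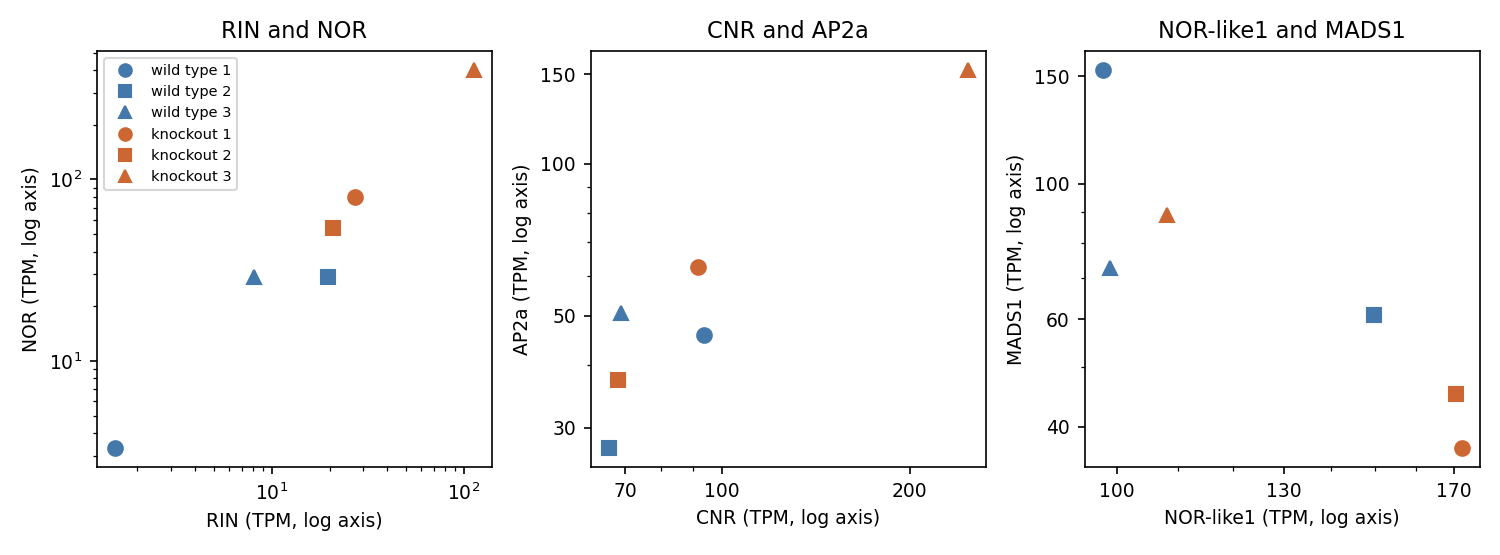
TPM of 3 pairs of regulators in each of the 6 libraries, both axes logarithmic. RIN and NOR are lowest in wild type 1 (1.53 and 3.29 TPM) and highest in knockout 3 (113 and 402 TPM), CNR and AP2a are set apart in knockout 3 (248 and 153 TPM), and MADS1 is high where NOR-like1 is low (r = −0.87, and −0.49 under median-ratio scaling).

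Ratios within a library do not depend on how libraries are scaled, and 4 were taken after the values had been seen. The ratio of NOR to NOR-like1 was 0.0337, 0.193 and 0.293 in the wild-type libraries, against 0.467, 0.317 and 3.72 in those of the knockout. For RIN to MADS1 it was 0.00996, 0.323 and 0.112, against 0.74, 0.46 and 1.27. For RIN to TAGL1 it was 0.00889, 0.0818 and 0.037, against 0.156, 0.127 and 0.678. For each of these 3 ratios all knockout libraries lay above all wild-type ones, and since the ratios were picked from the values no test is given. Each has RIN or NOR as its numerator, and the levels of both already did not overlap between genotypes. The ratios therefore add no separate support for that difference, and ratios of other gene pairs were not counted. The ratio of FUL1 to FUL2 was 0.83, 2.95 and 1.98, against 2.85, 1.44 and 3.71, and here the genotypes overlapped.

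**Figure D5:**
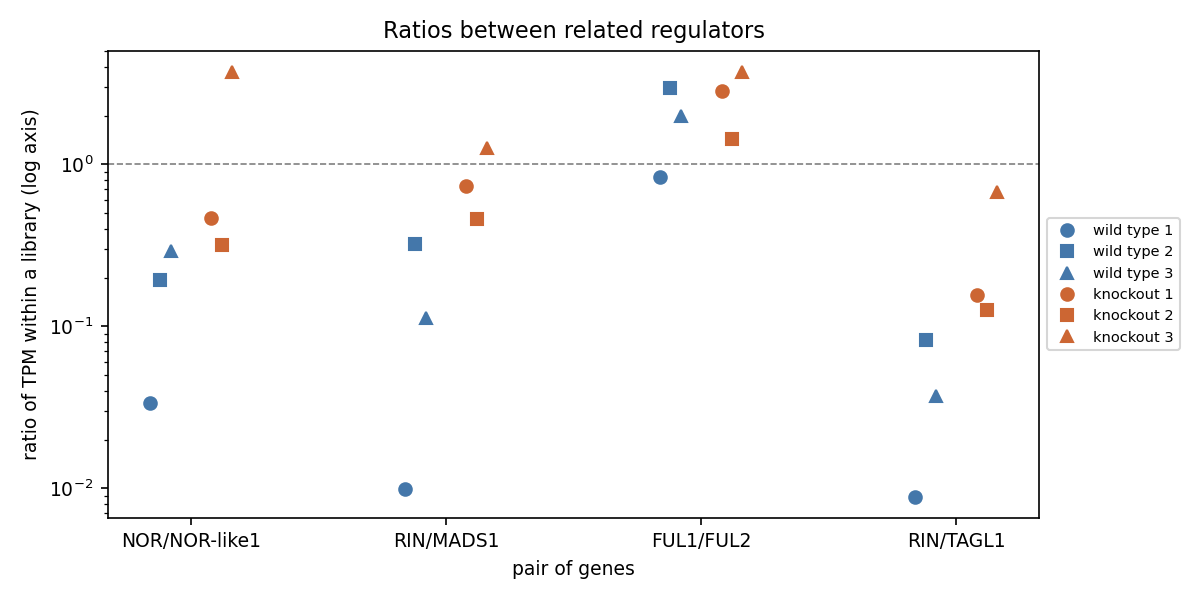
Ratio of TPM between 2 regulators within each library on a log axis, for 4 pairs; the dashed line marks equal levels. For NOR/NOR-like1, RIN/MADS1 and RIN/TAGL1 the knockout points lie above the wild-type points, with NOR exceeding NOR-like1 in knockout 3 alone (3.72), while FUL1/FUL2 overlaps between genotypes.

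Genes whose level followed RIN and NOR most closely were sought by Pearson's r over the 6 libraries among 12996 described genes with a mean of at least 5 TPM. For RIN these were genes described as an extra-large guanine nucleotide-binding protein (Solyc01g109110, r = 0.991), an RNA-binding protein (Solyc09g090960, r = 0.990), a subunit of the structure-specific endonuclease slx1 (Solyc01g088030, r = 0.988), an adenine nucleotide alpha hydrolase-like protein (Solyc06g084540, r = 0.985) and a Cue domain protein (Solyc06g068190, r = 0.983). NOR was ninth in this order (r = 0.978). For NOR the leading genes were described as cold regulated protein 27 (Solyc01g108100, r = 0.998), a transmembrane protein (Solyc11g012640, r = 0.995), a sigma factor binding protein (Solyc10g078440, r = 0.991), a mitochondrial pyruvate carrier (Solyc10g051120, r = 0.990) and a 2-oxoglutarate-dependent oxygenase (Solyc01g108880, r = 0.988). The pyruvate carrier gene was listed at 0 in wild type 1, had 14.4 and 12.4 TPM in wild type 2 and 3, and reached 26.0, 16.8 and 210.0 TPM in the knockout. With 6 points and so many genes, values of this size are a description of these libraries only.

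Other genes of ripening were read from 6 lists, whose counts at an unadjusted p under 0.05 stand beside 6.24% (higher) and 11.3% (lower) of all genes. Of 5 tested genes of ethylene synthesis, perception and reporting, 0 passed limma in either direction, and 1 was lower at an unadjusted p under 0.05. That gene, ACO1, makes ethylene from its precursor and had 672, 1317 and 2236 TPM in the wild-type libraries, against 301, 403 and 751 TPM in those of the knockout (log2 fold change −1.48, SE 0.52; limma adjusted p = 0.207). E8, an ethylene-responsive ripening gene bound by RIN, had 512, 1390 and 904 TPM in the wild-type libraries, against 1822, 449 and 6454 TPM in those of the knockout (limma adjusted p = 0.624). E4, a ripening gene for a methionine sulfoxide reductase, had 313, 455 and 386 TPM, against 69.9, 27.9 and 566 TPM (limma adjusted p = 0.379). Knockout 3 was thus the highest library for E8 and E4, as for RIN and NOR, but knockout 1 and 2 lay below every wild-type library in E4. The median log2 fold change of the list was −0.42.

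Of 7 carotenoid genes 0 passed limma in either direction, and 2 were higher at an unadjusted p under 0.05, with a list median of 0.39. These were PDS, which desaturates phytoene (36.6 ± 5.02 TPM in wild type, 63.8 ± 14.6 TPM in the knockout, SD, n = 3; limma adjusted p = 0.194), and CRTISO, an isomerase of the lycopene branch (26.2 ± 5.53 and 47.9 ± 12.1 TPM; limma adjusted p = 0.208). LCYB1, a cyclase that consumes lycopene, had 49.3, 58.9 and 63.7 TPM in the wild-type libraries, against 48.3, 23.2 and 40.7 TPM in those of the knockout (limma adjusted p = 0.334).

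Of 7 softening genes 0 passed limma in either direction, and 1 was higher at an unadjusted p under 0.05, with a list median of 0.89. That gene, MAN4, a mannan-cleaving enzyme, was listed at 0 in wild type 1, had 5.92 and 3.82 TPM in wild type 2 and 3, and reached 120.3, 6.39 and 672 TPM in the knockout (limma adjusted p = 0.192). TBG4, a pectin-trimming β-galactosidase, had 3.58, 4.24 and 21.2 TPM, against 35.9, 10.5 and 44.9 TPM (limma adjusted p = 0.296). PG2a, the ripening polygalacturonase that cuts pectin, had 0.04, 50.4 and 48.7 TPM, against 107.5, 10.8 and 367 TPM (limma adjusted p = 0.524). Wild type 1 was the lowest and knockout 3 the highest library for MAN4 and PG2a, as for RIN and NOR, but knockout 2 lay below wild type 2 and 3 in PG2a.

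Of 4 tested aroma and degreening genes 0 passed limma, 4 had a higher mean in the knockout (43.5% of all genes tested did), and 1 was higher at an unadjusted p under 0.05, with a list median of 1.83 that became 1.05 without knockout 3. That gene, SGR1, the green flesh gene for chlorophyll breakdown, had 18.9, 253 and 126 TPM in the wild-type libraries, against 549, 279 and 380 TPM in those of the knockout (limma adjusted p = 0.258). LOXC, a lipoxygenase that makes aroma volatiles, had 2.66, 3.19 and 7.05 TPM, against 3.25, 23.4 and 220 TPM (limma adjusted p = 0.365). ADH2, an alcohol dehydrogenase of the same route, had 505, 163 and 121 TPM, against 233, 868 and 1115 TPM (limma adjusted p = 0.342).

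Of 11 other regulators tied to ripening 0 passed limma, also at an unadjusted p under 0.05, and the list median was 0.12. LOB1, an LBD factor linked to softening, had 27.5, 74.4 and 61.6 TPM in the wild-type libraries, against 71.95, 66.3 and 162 TPM in those of the knockout (limma adjusted p = 0.412), again lowest in wild type 1 and highest in knockout 3. ERF6, an ethylene response factor, had 611, 606 and 467 TPM, against 189, 217 and 747 TPM (limma adjusted p = 0.457). Of 4 tested genes that place or remove DNA methylation besides DML2, 0 passed limma and 1 was lower at an unadjusted p under 0.05, with a list median of −0.91. That gene, MET1, the maintenance methyltransferase, had 11.6, 7.0 and 13.9 TPM in the wild-type libraries, against 5.20, 5.85 and 1.90 TPM in those of the knockout (limma adjusted p = 0.22). The demethylases DML1 (10.4 ± 6.55 and 3.59 ± 2.03 TPM) and DML3 (8.93 ± 4.36 and 5.07 ± 1.52 TPM, SD, n = 3) stood well below DML2 in both genotypes, with limma adjusted p-values of 0.298 and 0.53 for the difference between genotypes.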

How the data were processed

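RNA was extracted from fruit with TRIzol, per the labels' protocols, and sequenced as 3 libraries per genotype. The deposited table gives 1 value per gene and library with no unit in its header; values of a library sum to between 987932 and 994646, so the deposited values were taken to be TPM. TopHat2, HISAT2, StringTie and Cufflinks appear in the submitters' processing notes, with neither role nor version. Which genome build was used is not given in the sources used here. Depth cannot be read from TPM and is unknown, so counting error is not given, and an exact 0 can be a failed estimate.

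Columns were assigned to a genotype by their prefix. The 18368 genes that reached 1 TPM in 3 or more libraries entered limma 3.58.1 (R 4.3.3) as log2(TPM + 1), with limma's trend option. The test was run on simulated data first, where it called 4 genes that had not been changed. Pair statistics used NumPy and SciPy 1.17.1 in Python 3.11.15, and figures matplotlib 3.10.9. The regulators and lists were chosen with earlier results of these data known. Of the lists' entries, 2 were dropped because the table describes them under another name. Named genes were all 10 regulators, the 3 genes of each list with the lowest p, and the 5 nearest patterns of RIN and of NOR; 1 gene that this rule names is not reported here. Gene sequences were not used here. Alternatives changed the scaling (median-ratio), the filter (none, or 5 TPM), the pseudocount (0.1), limma's variance step (robust) and the libraries included.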

Additional observations from a re-analysis of the deposited data

How the results depend on the processing

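No regulator passed limma's adjusted threshold under any of the 12 alternatives to its fit; adjusted p-values ranged from 0.177 to 0.611 for RIN and from 0.177 to 0.548 for NOR. At an unadjusted p under 0.05, no regulator was higher without knockout 3, where MADS1 was lower. In that fit 1747 of all 18368 genes were higher and 1828 lower. RIN was lost on leaving out wild type 1, wild type 3 or the seed-rich pair, DML2 was added without wild type 3 and AP2a without knockout 2. Of all genes, 957 were higher without wild type 3 and 974 without knockout 2, beside 1146 with all libraries. The log2 fold change of FUL1 ranged from −0.16 (wild type 1 left out) to 0.80 without single libraries, and was −0.22 with both seed-rich libraries removed. Without single libraries, 2 to 3 regulators did not overlap on the higher side and 0 to 1 on the lower side (1, TAGL1, without both seed-rich libraries). Groups of fewer libraries separate more easily, and the share of all genes was not counted for these fits, so the counts only describe the libraries. Over all genes, limma called 8 higher and 9 lower, 14 and 13 after scaling by median ratios, 0 and 0 with no filter (1300 and 2399 at an unadjusted p under 0.05), 0 and 0 without both seed-rich libraries (538 and 1088), and 0 to 16 and 0 to 7 without single libraries; without wild type 3 or knockout 1 both were 0 (957 and 1376, and 689 and 1372). Pairs with r above 0 numbered 23, and 37 under median-ratio scaling, with no such count made for other genes. Without single libraries the median log2 fold change ranged from 1.05 to 2.05 for aroma and degreening genes, from 0.14 to 1.57 for softening genes, from −1.05 to −0.012 for ethylene genes and from −1.27 to −0.62 for methylation genes. No paired analysis was possible because the columns' numbers 1 to 3 are not those of the sample titles (only 1 column name equals a title) and mark no shared plant or batch. The depth behind these TPM values is unknown, so the precision of low levels, such as those of RIN and NOR in wild type 1, cannot be given.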

Other observations

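Both ripening-associated ACC synthase genes, which make the precursor of ethylene, were too low to be tested. ACS2 had 0.56, 0.57 and 0.80 TPM in the wild-type libraries, against 1.13, 0.24 and 10.3 TPM in those of the knockout. ACS4 had 1.18, 0.60 and 0.71 TPM in the wild-type libraries, against 0.34, 0.13 and 2.31 TPM in those of the knockout. For both, knockout 3 was the highest library. The aroma gene AAT1, an alcohol acyl transferase, was listed at 0 in wild type 1 and was highest in knockout 2, at 8.08 TPM, and not in knockout 3 (0.96 TPM).

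The ovule and seed MADS-box gene AGL11 had 21.5, 3.53 and 3.52 TPM in the wild-type libraries, against 1.30, 24.0 and 0.37 TPM in those of the knockout. It was high in wild type 1 and low in knockout 1, both called seed-rich here. Seed storage transcripts of wild type 1 and knockout 1 summed to 4657 and 4699 TPM by the 42 genes kept, but to 14255 and 5166 TPM by the full 106. The NAC gene NAC4 had 49.0, 119 and 148 TPM in the wild-type libraries, against 130.1, 101 and 313 TPM in those of the knockout, lowest in wild type 1 and highest in knockout 3. These genes were chosen after their values were seen.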
